A study of Mus musculus with 19 samples.

Results

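The 7 genes described here encode receptors for estrogen and progesterone, or close relatives of these receptors, and their values come from ribosome-bound messenger RNA of mouse cortical astrocytes. They are Esr1, Esr2, Gper1, Pgr, Esrra, Esrrb and Esrrg, chosen by name from a table of 21749 genes, and all 7 were found there and passed the minimum for testing. The 19 libraries come from cortex of mice of mixed B6;FVB background with the transgene Tg(Aldh1l1-EGFP/Rpl10a)JD130Htz. In these mice regulatory sequence of the astrocyte gene Aldh1l1 drives a ribosomal protein fused to a green fluorescent protein, so tagged ribosomes and their bound RNA can be pulled down (translating ribosome affinity purification). The groups were males (4 libraries) and females in metestrus (8), proestrus (3) and estrus (4), all with the same transgene. Females were collected at a single morning hour, and no hour is stated for males. The labels name batches 2, 3 and 4. Of the metestrus libraries 2 belong to batch 2, 1 to batch 3 and 5 to batch 4. Of the proestrus libraries 2 belong to batch 2 and 1 to batch 3, of the estrus libraries 3 and 1, and all 4 males belong to batch 4. Neither ages nor whether a library is 1 animal or a pool are stated, so p-values measure the spread between libraries, which may be technical. Replicate numbers below are names given in the order of the samples.

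Estrogen acts through the nuclear receptors alpha (Esr1) and beta (Esr2), which bind DNA as dimers at estrogen response elements and recruit coactivators, and through the membrane receptor Gper1, which couples to G proteins. The progesterone receptor (Pgr) is a nuclear receptor whose gene is itself a classical target of estrogen receptor alpha. The estrogen-related receptors alpha, beta and gamma (Esrra, Esrrb, Esrrg) resemble Esr1 in their DNA-binding domain but bind no known natural estrogen, and they drive genes of mitochondrial energy metabolism together with the coactivator Ppargc1a. In rodents circulating estrogen is low in metestrus, climbs to a peak in proestrus and has fallen again by estrus.

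The values are the deposited log2 values, whose scaling is not stated and which are taken as not corrected for gene length, so levels are compared between libraries and not between genes. Raised back from the log scale they summed to 2.23e7 to 2.56e7 in males, 2.12e7 to 2.53e7 in metestrus, 2.11e7 to 2.29e7 in proestrus and 1.98e7 to 2.54e7 in estrus. The sequencing depth is unknown. A value of 3.32 (10 before the log) in 3 libraries was the minimum for testing. Between 3965 and 4288 genes lay under it in male libraries, 3465 to 4474 in metestrus, 4079 to 4607 in proestrus and 3980 to 4485 in estrus. All 12 astrocyte markers of the fixed list were detected, with a summed level of 18.42 to 18.96 (log2) in males, 18.27 to 18.68 in metestrus, 18.41 to 18.49 in proestrus and 17.96 to 18.69 in estrus. Neuron markers (14 of 14 found) summed to 16.68 to 16.95 in males, 16.54 to 16.91 in metestrus, 16.63 to 16.80 in proestrus and 16.55 to 17.32 in estrus. No unpurified tissue library was used here, so receptor RNA cannot be assigned to astrocytes alone, and fewer cells of a type cannot be told apart from less RNA per cell.

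**Figure D1:**
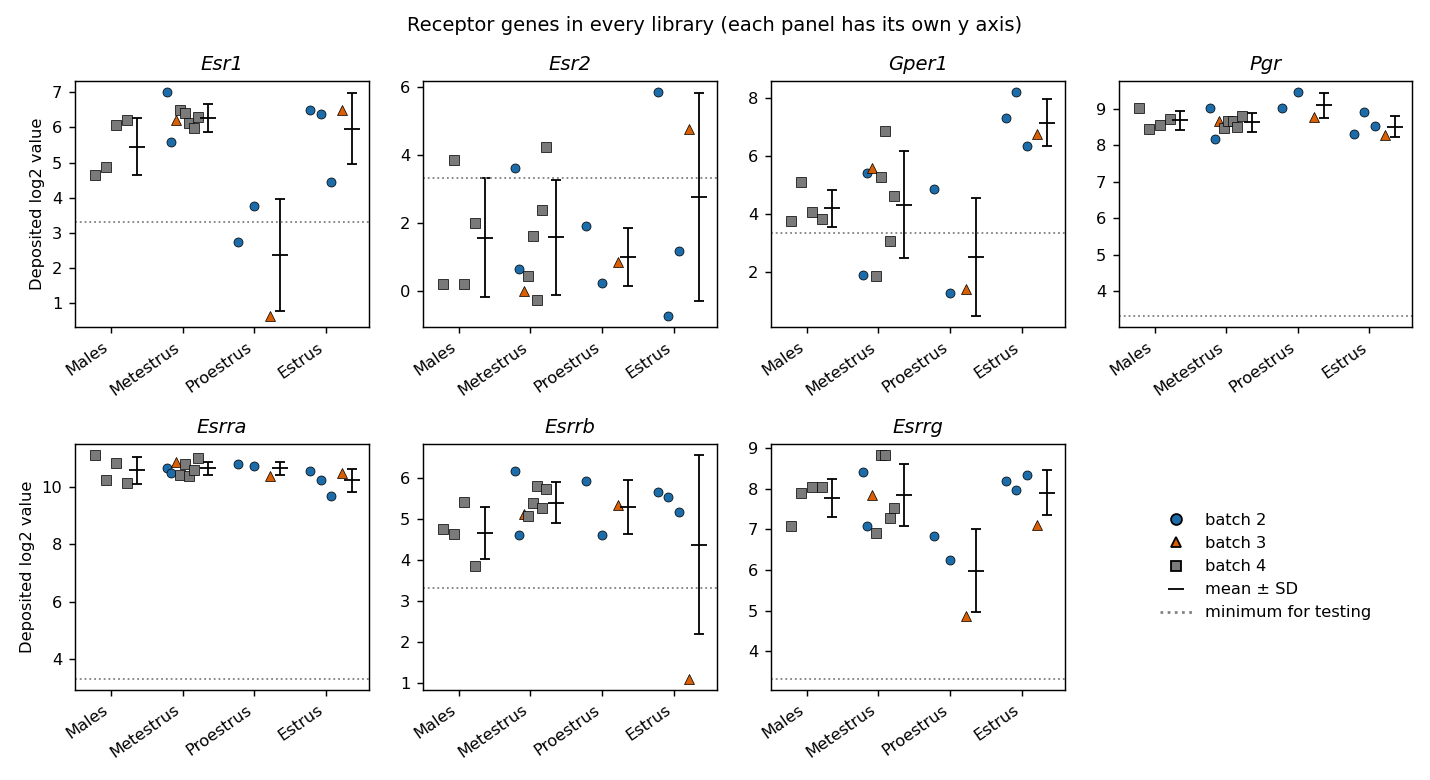
Deposited log2 value of each receptor gene (y axis, 1 panel per gene, each with its own range) in every library by group (x axis). Points are libraries with their batch, bars are the mean and SD, and the dotted line is the minimum of 3.32. The 3 proestrus libraries lie lowest of all 19 for Esr1 (0.64 to 3.75) and Esrrg (4.86 to 6.84), a ranking not counted over all tested genes.

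Esr1 and Gper1 were the receptor genes whose level differed between stages past the test, and proestrus had the lowest mean of the groups for both. Esr1 was lower in proestrus than in metestrus and higher in estrus than in proestrus, and Gper1 was higher in estrus than in proestrus. For each gene 2 of the 3 proestrus libraries lay under the minimum for testing. The Gper1 call held in only 2 of 7 fits that left out 1 library. With only the libraries of batches 2 and 3 in the fit, neither gene passed. Esrrg had its lowest values in proestrus too, just short of the test. Pgr had its highest mean in proestrus and its range overlapped with the other stages, as did those of Esrra, Esr2 and Esrrb, and none of these passed the test. No receptor gene passed the test between males and metestrus females.

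The gene for estrogen receptor alpha, Esr1 (ENSMUSG00000019768.17), was at 2.74, 3.75 and 0.64 in proestrus replicates 1, 2 and 3, against a lowest value of 5.59, a median of 6.25 and a highest of 7.0 in the 8 metestrus libraries. Estrus libraries stood at 6.51, 6.38, 4.46 and 6.51 in replicates 1 to 4. The 3 proestrus values are the lowest of the 19 libraries and overlap with no other group. How many of all tested genes rank this way was not counted, and no batch holds both proestrus females and males. Before the log they correspond to 1.56 to 13.5 in proestrus, with a median of 6.70, against 48.1 to 128 in metestrus with a median of 76.2. In 2 of 3 proestrus libraries Esr1 lay under the minimum of 3.32, and in 0 of 8 metestrus and 0 of 4 estrus libraries.

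Group and batch were fitted to all genes with limma, and p-values were adjusted over the 20644 genes tested at a threshold of 0.05. Esr1 averaged 2.38 ± 1.59 in proestrus (SD, 3 libraries) and 6.27 ± 0.41 in metestrus (SD, 8 libraries). The fitted log2 fold change was -3.89 ± 0.69 (SE, 95% interval -5.32 to -2.46, limma adjusted p = 0.00772). It was lower in both batches that hold the stages. In batch 2 the mean of 2 proestrus libraries was 3.25 against 6.29 in 2 metestrus libraries, a difference of -3.04. In batch 3 the single libraries stood at 0.64 in proestrus and 6.22 in metestrus, a difference of -5.58. Without proestrus replicate 3 the fold change was -2.90 (adjusted p = 0.0487), and without metestrus replicate 1 it was -3.60 and no longer past the threshold (adjusted p = 0.0502). With 10 added to each value before the log it was -2.41, so its size rests on how low values are treated.

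Of the 7 receptor genes 1 was lower and 0 were higher in proestrus than in metestrus, where 0.756% of all tested genes were called lower and 0.233% higher. In 2 of the 7 (Esr1 and Esrrg) every proestrus library lay under every metestrus library, as in 5.43% of all tested genes. The median log2 fold change was -0.41 over the 7 receptor genes and -0.09 over all tested genes. The first is the value of Esr2, whose SE was 1.54. Pgr stood at 0.47, Esrra at -0.03 and Esrrb at -0.0039, and Gper1 and Esrrg at -1.78 and -1.80. Of the 5161 genes with a mean level up to 4.17, which include Esr2 and none of the other 6 receptor genes, 2.02% were called in either direction.

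Choroid plexus and ependymal cells are among the other cell types a cortical pulldown can hold. Of their 10 markers 1 was lower in proestrus than in metestrus (Dnah1, a dynein of motile cilia, at -3.23, limma adjusted p = 0.00312), and the median over the list was -0.68. The summed level of this list was 8.79 to 10.05 in proestrus, 9.77 to 10.03 in estrus and 9.09 to 13.16 in metestrus. Each of its markers lay above 0 in at least 1 library. In estrus against proestrus Dnah1 was higher, at 2.90 (adjusted p = 0.00474), with a list median of 0.48. Of the 12 astrocyte, 14 neuron, 9 oligodendrocyte, 8 microglia, 10 endothelial and mural and 6 fibroblast markers, 0 were called in any comparison. The share of all tested genes called ran from 0.0242% in males over metestrus to 0.988% in proestrus over metestrus. The part of these cell types in the Esr1 values was not tested.

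In estrus Esr1 averaged 5.96 ± 1.0 (SD, 4 libraries), against the 2.38 ± 1.59 of proestrus, and the fitted log2 fold change was 3.53 ± 0.64 (SE, 95% interval 2.19 to 4.87, limma adjusted p = 0.00937). This comparison shares the 3 proestrus libraries with the one above. The call held when each of the 7 libraries was left out in turn, at 2.62 to 4.20. With only the 10 libraries of batches 2 and 3, from which the stage differences come, both Esr1 calls were lost with the fold changes as given (3.53, adjusted p = 0.181, for estrus over proestrus and -3.89, adjusted p = 0.178, for proestrus over metestrus). Within batch 2 the difference was 2.53, and within batch 3 it was 5.86. Estrus against metestrus gave -0.36 ± 0.64 (SE, 95% interval -1.70 to 0.98, adjusted p = 0.873). The width of that interval means that equal levels in estrus and metestrus are not shown.

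The Esr1 promoter windows are shown because Esr1 carries the largest number of called stage differences among these genes. They are RefSeq sequences of build GRCm38.p6, from 250 bases before to 50 bases after an annotated start, read 5′ to 3′ on the gene's strand. Capitals mark the estrogen response half-site GGTCA, searched on both strands. RefSeq gives windows at 2 starts, chr10:4611739-4612038 and chr10:4709908-4710207, both on the plus strand.
Esr1 first start: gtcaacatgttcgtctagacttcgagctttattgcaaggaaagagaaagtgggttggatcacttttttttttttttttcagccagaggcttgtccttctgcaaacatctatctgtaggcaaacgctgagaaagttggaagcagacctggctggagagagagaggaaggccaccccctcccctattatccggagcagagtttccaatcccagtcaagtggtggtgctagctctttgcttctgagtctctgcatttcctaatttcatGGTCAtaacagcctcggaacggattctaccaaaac
Esr1 second start: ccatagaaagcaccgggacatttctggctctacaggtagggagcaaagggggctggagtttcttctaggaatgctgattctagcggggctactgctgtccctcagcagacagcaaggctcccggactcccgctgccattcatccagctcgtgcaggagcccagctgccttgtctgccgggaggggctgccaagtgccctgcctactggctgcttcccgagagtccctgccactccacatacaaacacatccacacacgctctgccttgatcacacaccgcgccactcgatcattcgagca
The first window has 1 half-site, beginning at base 16 after the start, and the second has none. The half-site occurs in 40.5% of the 32851 promoter windows of the table, so its presence is common. The full element GGTCANNNTGACC occurs in 0.07% of them and in 0 of the 12 windows of the 7 receptor genes. The longer site TCAAGGTCA of the estrogen-related receptors, which contains the half-site, occurs in 0.423% and in 0 of the 12. A match or its absence in these windows says nothing of binding.

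The second nuclear estrogen receptor gene, Esr2 (ENSMUSG00000021055.15), was near the lower end of the scale in most libraries. It stood at 1.92, 0.23 and 0.86 in proestrus, at 5.85, -0.73, 1.17 and 4.76 in estrus and at 0.20, 3.86, 0.20 and 2.01 in males. In metestrus its lowest value was -0.26, its median 1.12 and its highest 4.22. It lay under the minimum in 6 of 8 metestrus, 3 of 3 proestrus, 2 of 4 estrus and 3 of 4 male libraries. The 5 libraries above the minimum are spread over metestrus, estrus and males. The residual SD after group and batch was 2.12, above that of 99.3% of tested genes of all levels, where genes of low level mostly have more spread. The fold change in proestrus against metestrus was -0.41 ± 1.54 (SE, limma adjusted p = 0.942), with a 95% interval from -3.61 to 2.79. Estrus against proestrus gave 1.78 ± 1.45 (SE, adjusted p = 0.611). At this spread a change of several fold in either direction was not detectable.

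**Figure D2:**
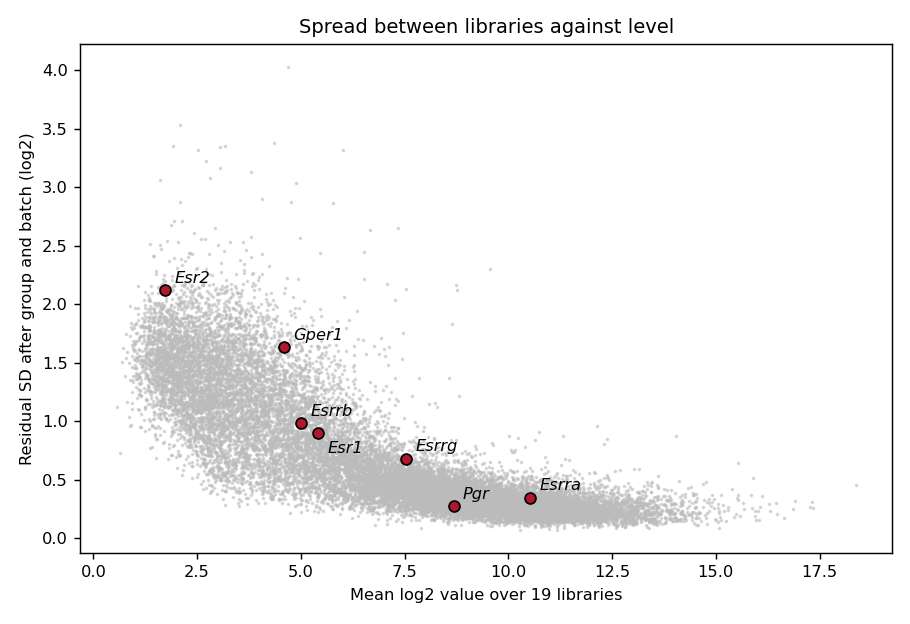
Residual SD of the log2 values after group and batch (y axis) against the mean log2 value over 19 libraries (x axis). Grey points are all 20644 tested genes and red points the 7 receptor genes. Esr2 (2.12) and Gper1 (1.64) vary far more than Pgr (0.28) and Esrra (0.35), and the median gene has 0.45.

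The membrane estrogen receptor gene Gper1 (ENSMUSG00000053647.5) was at 7.31, 8.18, 6.34 and 6.73 in estrus, against 4.84, 1.27 and 1.41 in proestrus. Metestrus libraries ranged from 1.86 to 6.84 with a median of 4.93, and males stood at 3.76, 5.11, 4.08 and 3.81. The 4 estrus libraries lie above all proestrus libraries and overlap with the top of metestrus. No batch holds both males and estrus females, so their values are given side by side without a test. In 3 of 8 metestrus and 2 of 3 proestrus libraries the value was under the minimum, so the size of a fold change against these groups is uncertain. Gper1 averaged 7.14 ± 0.80 in estrus (SD, 4 libraries) and 2.51 ± 2.02 in proestrus (SD, 3 libraries). The fitted log2 fold change was 4.62 ± 1.07 (SE, 95% interval 2.40 to 6.84, limma adjusted p = 0.0375).

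The Gper1 difference had the same direction in both batches, at 4.22 in batch 2 (7.28 in estrus and 3.06 in proestrus) and 5.32 in batch 3 (6.73 in estrus and 1.41 in proestrus). It kept its call in 2 of 7 fits that left out 1 library, with values from 3.90 to 5.92 and adjusted p-values from 0.0231 to 0.174. The call was lost in the fits without proestrus replicates 2 and 3 and without estrus replicates 1, 2 and 3. The deposited values lack 4 directions of variation between libraries. With covariates for 2 of these beside batch, the Gper1 call was also lost (limma adjusted p = 0.0860). Esr1 kept its call in both comparisons in that fit (0.0277 and 0.0303). The batch term covers most of 1 further direction and little of the last, so these p-values may still be too small. Restricted to batches 2 and 3 Gper1 did not pass either (4.62, adjusted p = 0.175). With 10 added before the log the Gper1 fold change was 3.05 (adjusted p = 0.0248). Endothelial and mural markers summed to 10.25 to 10.42 in estrus, 10.66 to 10.89 in proestrus and 10.29 to 10.98 in metestrus. Estrus lay under proestrus, and metestrus overlapped with both. Oligodendrocyte markers summed to 14.67 to 15.15 in estrus, 14.52 to 14.72 in proestrus and 14.41 to 14.64 in metestrus, so estrus overlapped with proestrus and lay above metestrus. Their median was 0.27 in estrus over proestrus and 0.37 in estrus over metestrus, with 0 of 9 called. The part of these cell types in the Gper1 values was not tested.

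Against metestrus, where Gper1 averaged 4.31 ± 1.83 (SD, 8 libraries), estrus gave 2.84 ± 1.07, which did not pass (SE, 95% interval 0.62 to 5.06, limma adjusted p = 0.318). Without batch in the model it passed at 2.83 (adjusted p = 0.0483). In batch 2 the difference was 3.63, and in batch 3 it was 1.17. Proestrus against metestrus gave -1.78 ± 1.14 (SE, adjusted p = 0.542), with -0.59 in batch 2 and -4.15 in batch 3. Metestrus itself varied widely within batch 4, where the 5 libraries ran from 1.86 to 6.84.

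In estrus against proestrus 2 of the 7 receptor genes were higher and 0 lower, where 0.596% of all tested genes were called higher and 0.344% lower. In 3 of the 7 (Esr1, Gper1 and Esrrg) every estrus library lay above every proestrus library, as in 4.43% of all tested genes. In estrus against metestrus 0 of the 7 were called by limma, where 0.0194% of tested genes were called higher and 0.0678% lower. At an unadjusted p under 0.05 there was 1 of 7, Gper1, and 11.3% of all tested genes lay under it. The ranges of all 7 overlapped in that comparison, where 3.33% of tested genes had ranges that did not. The other fold changes of estrus over metestrus were 1.37 ± 1.45 for Esr2, -0.13 ± 0.23 for Pgr, -0.43 ± 0.24 for Esrra, -1.07 ± 0.71 for Esrrb and 0.04 ± 0.46 for Esrrg (SE, adjusted p from 0.518 to 0.982).

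The Gper1 promoter window is shown beside those of Esr1 since both genes were higher in estrus than in proestrus. RefSeq gives 1 window, chr5:139422929-139423228 on the plus strand of GRCm38.p6. It contains no GGTCA and is therefore in lower case.
Gper1: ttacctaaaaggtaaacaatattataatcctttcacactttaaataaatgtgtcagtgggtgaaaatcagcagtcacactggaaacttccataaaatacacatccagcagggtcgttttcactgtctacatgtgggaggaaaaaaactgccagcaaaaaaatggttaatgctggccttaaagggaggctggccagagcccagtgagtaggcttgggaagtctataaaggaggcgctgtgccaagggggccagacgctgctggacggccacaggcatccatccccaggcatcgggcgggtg
The window has 48.3% G and C with 6 CpG, and the first window of Esr1 has 46.3% with 6 CpG. The median over all windows of the table is 52.7% with 7 CpG.

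**Figure D3:**
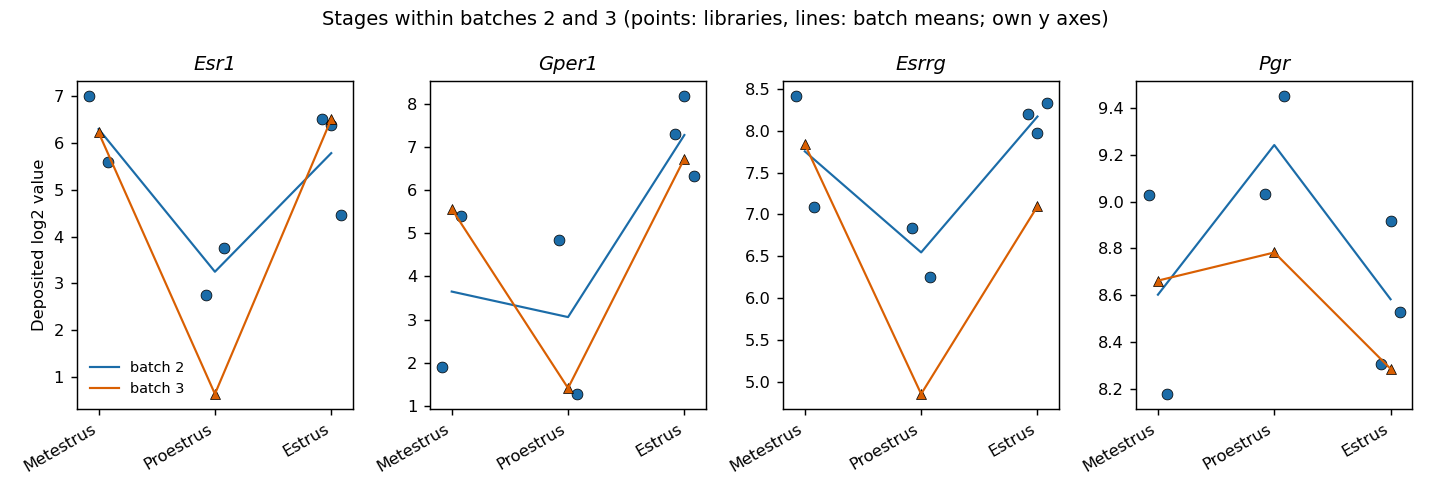
Deposited log2 values (y axis, own range per panel) of Esr1, Gper1, Esrrg and Pgr by stage (x axis) in batches 2 and 3. Points are libraries and lines join batch means. For Esr1, Gper1 and Esrrg the proestrus mean is the lowest in both batches, and for Pgr it is the highest in both.

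The progesterone receptor gene Pgr (ENSMUSG00000031870.17) was measured with small spread. It stood at 9.03, 9.45 and 8.78 in proestrus, at 8.31, 8.92, 8.53 and 8.29 in estrus and at 9.02, 8.43, 8.55 and 8.72 in males, and metestrus libraries ranged from 8.18 to 9.03 with a median of 8.66. The proestrus values sit at the upper end, and their lowest overlaps with the other groups. Pgr averaged 8.51 ± 0.29 in estrus (SD, 4 libraries) and 9.09 ± 0.34 in proestrus (SD, 3 libraries), with a fitted difference of -0.60 ± 0.23 (SE, 95% interval -1.08 to -0.12, limma adjusted p = 0.220). Proestrus against metestrus gave 0.47 ± 0.25 (SE, 95% interval -0.05 to 0.98, adjusted p = 0.441). The direction was the same in batches 2 and 3, at 0.64 and 0.12 for proestrus against metestrus. These differences did not pass over all genes. The residual SD of 0.28 was lower than in most tested genes of all levels (21.8th percentile). Spread mostly falls as level rises, and genes of like level were not compared.

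The Pgr window is shown for comparison, as that of a gene known as an estrogen target. It is chr9:8899583-8899882 on the plus strand of GRCm38.p6.
Pgr: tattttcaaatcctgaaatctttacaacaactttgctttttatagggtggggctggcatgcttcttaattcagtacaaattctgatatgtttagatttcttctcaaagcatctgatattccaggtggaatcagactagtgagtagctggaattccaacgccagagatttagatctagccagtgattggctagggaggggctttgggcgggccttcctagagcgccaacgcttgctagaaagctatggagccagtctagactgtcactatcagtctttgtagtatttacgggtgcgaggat
It contains no GGTCA and no full element, and has 43.7% G and C with 6 CpG.

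Of the estrogen-related receptors, Esrrg (ENSMUSG00000026610.14) differed most between stages. It was at 6.84, 6.25 and 4.86 in proestrus, against 6.92 to 8.84 in metestrus with a median of 7.68. Estrus libraries stood at 8.20, 7.97, 8.33 and 7.10. As for Esr1, the 3 proestrus values are the lowest of the 19 libraries, though the highest of them, 6.84, lies just under the lowest metestrus value of 6.92. Proestrus averaged 5.98 ± 1.02 (SD, 3 libraries) and metestrus 7.84 ± 0.77 (SD, 8 libraries). The fitted log2 fold change was -1.80 ± 0.49 and did not pass (SE, 95% interval -2.81 to -0.79, limma adjusted p = 0.0811).

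In estrus Esrrg averaged 7.90 ± 0.56 (SD, 4 libraries), and its fold change over proestrus was 1.84 ± 0.46 (SE, 95% interval 0.89 to 2.79, limma adjusted p = 0.0518). With libraries centred on their medians it passed (1.85, adjusted p = 0.0392). Proestrus against metestrus passed with no batch in the model (-1.86, adjusted p = 0.0112) and without metestrus replicate 2 (-2.34, adjusted p = 0.0285). The latter was the only call in 11 fits that left out 1 library, with limma adjusted p-values up to 0.308. Of the 11, 5 left out a metestrus library of batch 4, which can change the estimate of spread and not the fold change. Estrus against proestrus passed in 0 of 7 fits that left out 1 library (adjusted p from 0.0633 to 0.155). Under the other settings adjusted p-values reached 0.251 for proestrus against metestrus and 0.184 for estrus against proestrus. Within batches the differences for proestrus against metestrus were -1.21 in batch 2 and -2.98 in batch 3. Estrus against proestrus gave 1.62 in batch 2 and 2.24 in batch 3. All Esrrg values lie above the minimum, and adding 10 before the log left -1.63 and 1.67.

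Across the 19 libraries Esr1 and Esrrg had a Pearson r of 0.75 and a Spearman rho of 0.49, the highest r of the 21 pairs of receptor genes. Gper1 and Esrrg had 0.56 and 0.51, and Esr1 and Gper1 had 0.37 and 0.26. These are descriptions over libraries that share groups, batches and the same removed directions. In both Esr1 and Esrrg the 3 proestrus libraries are the lowest 3. The share of all tested genes with this ranking was not counted.

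RefSeq gives 4 windows for Esrrg, and the only one with a half-site is shown, since Esrrg followed Esr1 most closely among the receptor genes. It is chr1:187651991-187652290 on the plus strand of GRCm38.p6.
Esrrg start 3: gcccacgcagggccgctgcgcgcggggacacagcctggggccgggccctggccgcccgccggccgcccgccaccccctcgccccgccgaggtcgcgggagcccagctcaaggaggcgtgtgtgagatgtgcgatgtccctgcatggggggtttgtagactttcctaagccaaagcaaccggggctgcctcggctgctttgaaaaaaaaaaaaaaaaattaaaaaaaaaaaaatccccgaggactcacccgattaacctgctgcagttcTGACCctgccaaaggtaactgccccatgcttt
The half-site lies on the opposite strand, so the capitals read TGACC, and it begins at base 19 after the start. The window has 61.3% G and C with 22 CpG, more than those of Esr1, Gper1 and Pgr shown above.

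Esrra (ENSMUSG00000024955.16), the estrogen-related receptor best known for control of mitochondrial genes, was at 10.80, 10.73 and 10.35 in proestrus and 10.52, 10.23, 9.66 and 10.48 in estrus. Metestrus ran from 10.37 to 10.99 with a median of 10.61, and males stood at 11.10, 10.21, 10.83 and 10.13. All groups overlapped. Proestrus against metestrus gave -0.03 ± 0.26 (SE, 95% interval -0.57 to 0.51, limma adjusted p = 0.976), an interval that does not reach a doubling or halving. Estrus against proestrus gave -0.40 ± 0.24 (SE, adjusted p = 0.471). In the GENCODE vM21 annotation exons of Trmt112, on the opposite strand, overlap those of Esrra. The sources used here do not say that strand was counted, so reads of these genes may be mixed. Mir6990 also overlaps its exons.

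Esrrb (ENSMUSG00000021255.18), a receptor known for its role in pluripotent cells and the inner ear, was at 5.93, 4.62 and 5.35 in proestrus and 5.66, 5.54, 5.18 and 1.10 in estrus. Metestrus ran from 4.61 to 6.17 with a median of 5.33. Estrus replicate 4 stands far below the other 18 libraries, of which the lowest is a male library at 3.84. Estrus against proestrus gave -1.06 ± 0.71 (SE, limma adjusted p = 0.515) and 0.13 without estrus replicate 4. Proestrus against metestrus gave 0.00 ± 0.76 (SE, -0.0039 unrounded, adjusted p = 0.999), with a 95% interval from -1.57 to 1.57. The direction of that value changed with the scaling of libraries and with single libraries left out.

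**Figure D4:**
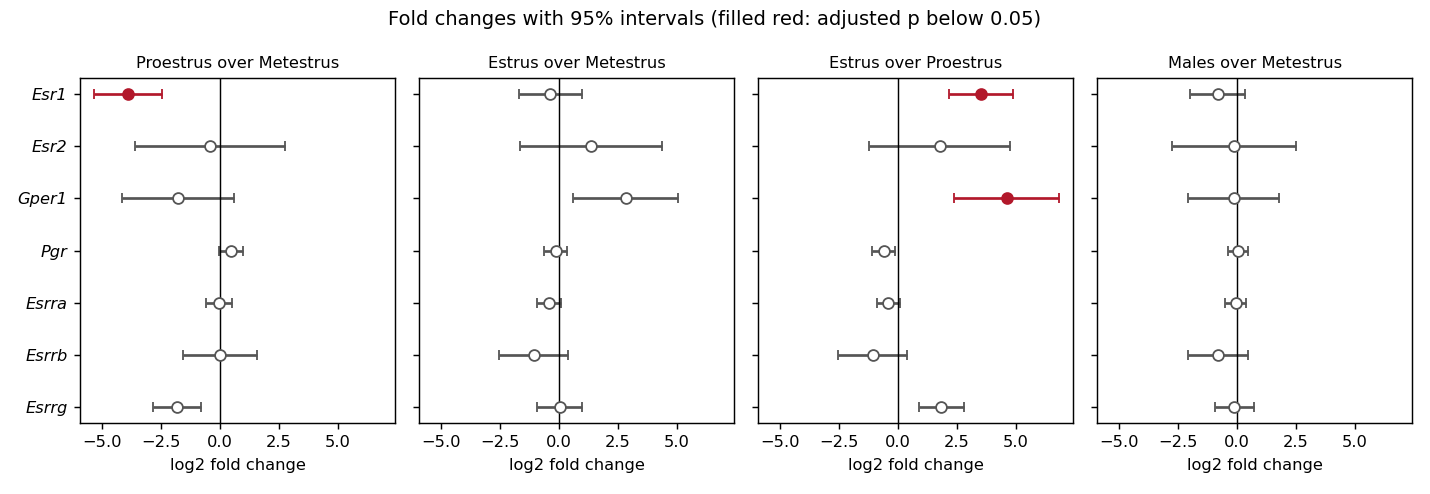
Log2 fold change (x axis) of each receptor gene (rows) with its 95% interval in the 4 comparisons. Filled red points passed the threshold of 0.05 over all tested genes. Those are Esr1 in proestrus over metestrus (-3.89) and in estrus over proestrus (3.53), and Gper1 in estrus over proestrus (4.62).

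Males were compared with metestrus females, which share batch 4. Of the 7 receptor genes 0 were called by limma, where 0.0194% of all tested genes were called higher and 0.00484% lower. An unadjusted p under 0.05 was reached by 0 of the 7 and by 5.33% of all tested genes. The ranges of all 7 overlapped, and 1.44% of tested genes had ranges that did not. Esr1 stood at 4.64, 4.87, 6.07 and 6.22 in males, against 5.98 to 6.51 in the 5 metestrus libraries of batch 4. Its log2 fold change was -0.81 ± 0.56 (SE, 95% interval -1.98 to 0.36, adjusted p = 0.983), and its range over fits without 1 library was -1.07 to -0.54. With batch 4 alone the unadjusted p was 0.0453 and the adjusted p 0.678. Esrrb was at 4.74, 4.63, 5.41 and 3.84 in males and gave -0.80 ± 0.62 (SE, 95% interval -2.09 to 0.49, adjusted p = 0.983).

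The remaining 5 genes stood between -0.14 and 0.06 in males over metestrus. Their intervals differ in width. For Pgr it ran from -0.37 to 0.48 and for Esrra from -0.50 to 0.39, and neither reached a doubling or halving. For Esrrg it ran from -0.94 to 0.73. For Gper1 it ran from -2.08 to 1.81 and for Esr2 from -2.74 to 2.52, so changes of several fold were not detectable there. No batch holds both males and proestrus or estrus females. The Esr1 values of all 4 males (4.64 to 6.22) lie above the 3 proestrus values (0.64 to 3.75), given here side by side without a test.

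Genes that work with these receptors were followed as fixed lists. In each stage comparison and in males over metestrus 0 of them passed the test in limma. Of all tested genes 0.988% passed in proestrus over metestrus and 0.0872% in estrus over metestrus. In estrus over proestrus 0.940% passed, and in males over metestrus 0.0242%. In lists of this size 0 calls are near these shares. The lists were chosen with earlier results of these data known. Among 17 estrogen-responsive genes with a measurement, 2 had an unadjusted p under 0.05 in proestrus over metestrus and 3 in estrus over proestrus, where 13.1% and 14.5% of all tested genes did. Their median log2 fold changes were -0.02 and 0.02, against -0.09 and 0.02 over all tested genes. Ramp3, an accessory protein of calcitonin-family receptors, averaged 8.44 in proestrus and 6.78 in metestrus, a fold change of 1.63 ± 0.46 (SE, adjusted p = 0.0963). Siah2, a ubiquitin ligase, stood at -0.72 ± 0.28 (SE, adjusted p = 0.256) in the same comparison. In estrus over proestrus the retinoic acid receptor gene Rara stood at -0.71 ± 0.25 (SE, adjusted p = 0.168). Gal, the neuropeptide galanin, stood at -2.85 ± 1.09 (SE, adjusted p = 0.211) with a mean of 1.79 over the libraries, under the minimum.

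Coactivators and corepressors of nuclear receptors, 17 genes, had medians of 0.12 in proestrus over metestrus and -0.15 in estrus over proestrus, with 3 and 1 genes under an unadjusted p of 0.05 (13.1% and 14.5% of all tested genes). Ncoa3, a coactivator of the p160 family first described with estrogen receptor alpha, averaged 8.85 in proestrus, 7.92 in estrus and 8.07 in metestrus. Its fold changes were 0.79 ± 0.26 in proestrus over metestrus (SE, limma adjusted p = 0.166) and -0.91 ± 0.24 in estrus over proestrus (SE, adjusted p = 0.0664). Ddx17, an RNA helicase that acts as a coactivator, gave -0.51 ± 0.26 in estrus over proestrus (SE, adjusted p = 0.375). Ppargc1a, the coactivator of the estrogen-related receptors, stood at 10.56 in proestrus and 11.12 in metestrus, with a fold change of -0.58 ± 0.18 (SE, adjusted p = 0.128).

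Partners and energy metabolism targets of the estrogen-related receptors, 24 genes with a measurement, had medians of -0.06 and 0.14 in proestrus over metestrus and estrus over proestrus, with 2 genes each under an unadjusted p of 0.05 (13.1% and 14.5% of all tested genes). Beside Ppargc1a, which is on both lists, Vegfa, an endothelial growth factor, stood at -0.68 ± 0.29 in proestrus over metestrus (SE, limma adjusted p = 0.316). In estrus over proestrus Idh3a, a subunit of mitochondrial isocitrate dehydrogenase, stood at 0.47 ± 0.19 (SE, adjusted p = 0.240). Perm1, a muscle-enriched regulator induced by Ppargc1a and the estrogen-related receptors, stood at -1.89 ± 0.88 (SE, adjusted p = 0.320). In estrus over metestrus 5 of the 24 had an unadjusted p under 0.05, as did 11.3% of all tested genes, with a median of 0.12 against -0.07 over all tested genes.

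Signalling partners of membrane estrogen receptors, 21 genes, had medians of 0.06 in proestrus over metestrus and 0.05 in estrus over proestrus, with 2 and 4 genes under an unadjusted p of 0.05 (13.1% and 14.5% of all tested genes). Cav1, the membrane scaffold caveolin that is also abundant in endothelial cells, averaged 7.46 in estrus and 6.2 in proestrus, a fold change of 1.23 ± 0.36 (SE, limma adjusted p = 0.0930). Against metestrus, at 7.22, proestrus gave -1.04 ± 0.38 for Cav1 (SE, adjusted p = 0.228). Pik3r1, a regulatory subunit of phosphoinositide 3-kinase, stood at -0.53 ± 0.19 in proestrus over metestrus (SE, adjusted p = 0.206). Adcy1, an adenylyl cyclase, stood at -0.68 ± 0.19 in estrus over proestrus (SE, adjusted p = 0.0799).

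The chaperones that hold steroid receptors ready to bind hormone, 14 genes with a measurement, had medians of -0.03 and 0.17 in proestrus over metestrus and estrus over proestrus. Over all tested genes the medians were -0.09 and 0.02. Of the 14 chaperones 0 and 2 had an unadjusted p under 0.05, as did 13.1% and 14.5% of all tested genes. Dnajb1, a heat shock cochaperone, stood at -0.32 ± 0.20 (SE, limma adjusted p = 0.540) and 0.57 ± 0.19 (SE, adjusted p = 0.150) in these comparisons. Bag1, another cochaperone, stood at -0.36 ± 0.30 in the first (SE, adjusted p = 0.660), and Ahsa1, an activator of a major heat shock chaperone, at 0.50 ± 0.18 in the second (SE, adjusted p = 0.200). Of the progesterone-responsive list 9 genes were tested. Many of these also respond to glucocorticoids. Their medians were -0.31 and 0.18, with Zbtb16 at -0.91 ± 0.27 and 0.64 ± 0.25 (SE, adjusted p = 0.120 and 0.234). An unadjusted p under 0.05 was reached by 1 and 3 of the 9. Tsc22d3 stood at -0.59 ± 0.33 in proestrus over metestrus (SE, adjusted p = 0.467), and Sgk1 at 0.71 ± 0.26 in estrus over proestrus (SE, adjusted p = 0.195). The related nuclear receptor genes for glucocorticoids (Nr3c1) and mineralocorticoids (Nr3c2) gave -0.12 ± 0.21 and 0.23 ± 0.25 in proestrus over metestrus (SE, adjusted p = 0.863 and 0.755). In estrus over proestrus they gave 0.10 ± 0.19 and 0.16 ± 0.23 (SE, adjusted p = 0.865 and 0.801).

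The genes whose profile over the 19 libraries was most like that of each receptor gene were found by Pearson r among tested genes with a mean of at least 3.32. Closest to Esr1 were Thumpd2 (r = 0.91), Ckap2l (0.90) and Pus10 (0.90), a pseudouridine synthase. Closest to Gper1 were Gm42715 (r = 0.90), Il17rb (0.87), an interleukin receptor, and Gmppb (0.87), an enzyme of mannose activation. Closest to Esrrg were Egflam (r = 0.92), a matrix protein of photoreceptor synapses, Tjap1 (0.90) and Ythdc2 (0.89), an RNA helicase that binds methylated RNA. For Pgr they were Zfyve1 (r = 0.86), C430014B12Rik (0.85) and the Golgi protein gene Gorasp1 (0.83). Esrra was followed most closely by Lynx1 (r = 0.87), a modulator of nicotinic receptors, ENSMUSG00000126409 (0.83) and the ubiquitin-conjugating enzyme gene Ube2q1 (0.82). Esrrb was followed by H2-Ab1 (r = 0.88), a chain of major histocompatibility complex class II, the transcription factor gene Npas1 (0.88) and Cdc45 (0.85), a replication factor. For Esr2 they were Elmod1 (r = 0.85), ENSMUSG00000127193 (0.78) and Gm17484 (0.72). Each is among the highest of a very large number of correlations, over libraries that share groups, batches and the missing directions, and is given as a description. None of the receptor genes is among the 3 closest of another.

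**Figure D5:**
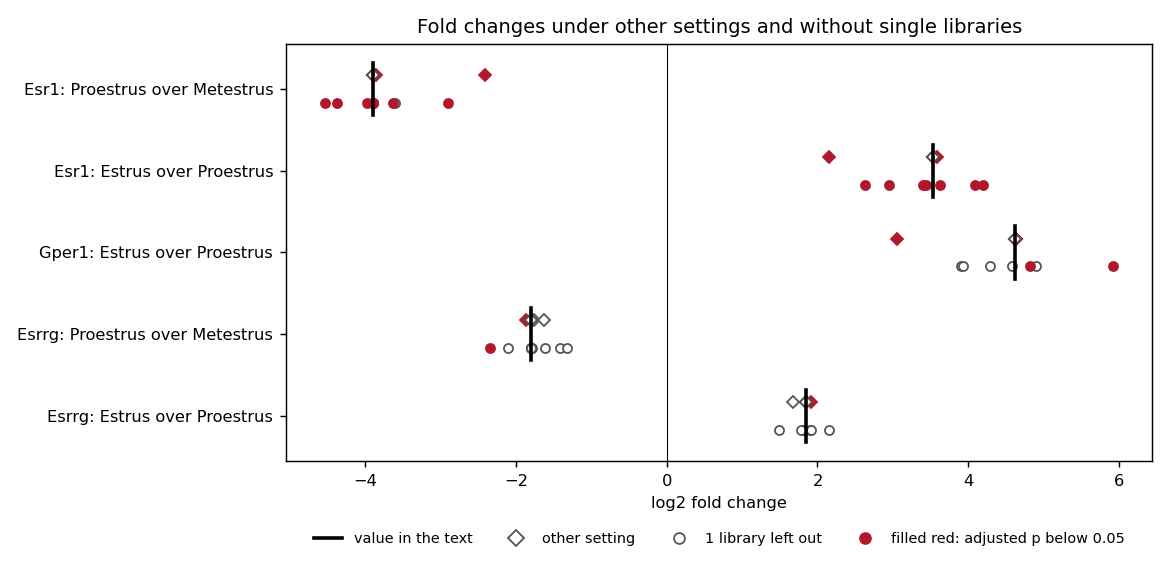
Log2 fold change (x axis) of 5 comparisons of Esr1, Gper1 and Esrrg (rows) as given in the text (black bar), under other settings (diamonds) and without single libraries (circles). Filled red symbols passed 0.05 after adjustment. All symbols of a row lie on 1 side of 0, and the filled ones are most frequent for Esr1.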

How the data were processed

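Ribosome-bound polyadenylated RNA was sequenced in 19 libraries. The authors deposited log2 values for 21749 genes, from -5.12 to 19.0. Per the submitters' processing notes STAR, Salmon, edgeR and build GRCm39 were used, and no version, pseudocount or scaling is given, so depth is unknown. Promoters are RefSeq sequences of GRCm38.p6, matched by symbol for 7 of 7 genes (12 windows).

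The deposited values lack 4 directions of variation between libraries: after the groups are fitted they span 11 dimensions of a possible 15. Batch has 2 directions, and the removed space holds 98.6% of one and 9.95% of the other. Residual degrees of freedom are therefore overstated: 13 were used after group and batch, and 11 are present before batch is fitted. Fitting batch uses up part of the 11, so fewer remain. The overstatement makes p-values too small and intervals too narrow.

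Genes with a log2 value of at least 3.32 in at least 3 libraries were tested (20644, 94.9%). A linear model with terms for group and batch was fitted with limma 3.58.1 (R 4.3.3, trend and robust), and two-sided p-values were adjusted by Benjamini-Hochberg over all tested genes (threshold 0.05). With these terms, stage differences come from batches 2 and 3 and male differences from batch 4. The procedure was tested on simulated data with independent noise, no batch effects and no missing directions. That test cannot show the effect of the missing directions on p-values. Named genes are the 7 members, the 3 genes most like each, and in each list those past the threshold or else the 2 with the lowest p in proestrus over metestrus and in estrus over proestrus. Members and lists were chosen with earlier results of these data known. Alternatives left out batch, the filter, trend and robust, or single libraries, added 10 before the log or centred libraries on their medians. Others kept only batches 2 and 3 or batch 4, used a replicate block, or added covariates for 2 of the 4 missing directions. No 2 libraries held identical values.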

Additional observations from a re-analysis of the deposited data

Results flagged for a closer look

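Each of the 7 receptor genes was searched in metestrus, estrus and males (21 groups) for a library far from the others of its group, at a level that chance passes in about 1 in 20 groups. There were 3. Esr1 in estrus replicate 3 stood at 4.46, where the next estrus library was at 6.38. Without it the log2 fold change of estrus over metestrus was 0.19 in place of -0.36. Esrrb in estrus replicate 4 stood at 1.10, next to 5.18, and without it estrus over metestrus was 0.13 in place of -1.07. Esrrg in males replicate 1 stood at 7.09, next to 7.90, and without it males over metestrus was 0.12 in place of -0.11. None of these fold changes passed the threshold. Without estrus replicate 3 the Esr1 fold change of estrus over proestrus was 4.08 and still passed (limma adjusted p = 0.00199).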

How the results depend on the processing

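With no batch term 5.55% of genes passed in proestrus over metestrus (0.988% as reported), 4.35% in estrus over metestrus (0.0872%), 1.75% in estrus over proestrus (0.940%) and 0.0484% in males over metestrus (0.0242%), with 2, 1, 3 and 0 receptor genes. With covariates for 2 of the missing directions 0.363%, 0% and 0.252% passed in the stage comparisons in that order, with 1, 0 and 1 receptor genes. With batches 2 and 3 only, and so fewer samples, these were 0.00484%, 0% and 0% with 0 receptor genes. Without trend and robust 0.237% passed in estrus over metestrus and 0.0436% in males over metestrus, and 1 receptor gene in estrus over proestrus. Centring gave 1.5% in estrus over proestrus with 3 receptor genes, and 10 added before the log gave 0.0630% in males over metestrus. Without 1 library 0.329% to 0.920% passed in proestrus over metestrus, with 0 to 2 receptor genes (0.329% and 0 without metestrus replicate 1, 0.397% and 0.610% without proestrus replicates 1 and 2, 2 receptor genes without metestrus replicate 2). In estrus over metestrus the range was 0% to 0.271%. In estrus over proestrus it was 0.320% to 2.08% with 1 to 2 receptor genes (0.320%, 0.402% and 1.47% without proestrus replicates 1, 2 and 3, 0.596% and 2.08% without estrus replicates 2 and 4). In males over metestrus it was 0.0242% to 0.0388%. Of the receptor genes' log2 fold changes, those that crossed 0 without 1 library had not passed. In proestrus over metestrus they ranged from -1.56 to 0.83 (Esr2), -0.14 to 0.22 (Esrra) and -0.84 to 0.67 (Esrrb). In estrus over metestrus they ranged from -0.94 to 0.19 (Esr1), -0.43 to 0.051 (Pgr), -1.77 to 0.13 (Esrrb) and -0.52 to 0.49 (Esrrg), and in estrus over proestrus from -1.75 to 0.13 (Esrrb). In males over metestrus they ranged from -0.87 to 0.53 (Esr2), -0.75 to 0.49 (Gper1), -0.056 to 0.14 (Pgr), -0.23 to 0.091 (Esrra) and -0.35 to 0.13 (Esrrg). Centring turned proestrus over metestrus to 0.0057 for Esrra and 0.032 for Esrrb. Beyond fewer samples, the cause of these shifts was not tested. Numbers in the titles recur in batch 4, and the deviations of libraries that share one correlated at 0.15, -0.0097, -0.20 and -0.10, with 1 of 4 highest with its own number, so they were not taken as pairs. With these numbers as a replicate block the log2 fold change of males over metestrus was -0.88 for Esr1 and 0.065 for Esr2, and 0 receptor genes passed.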
